A study of Mus musculus with 3 samples.

Results

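The genes described here are 10 signalling genes that act below FcεRI, the high-affinity receptor for immunoglobulin E: the kinases Prkcd, Prkcb, Pik3cd, Lyn, Fyn and Btk, the adaptors Gab2 and Lcp2, the lipase Plcg1 and the phosphatase Inpp5d. They are 10 of 21900 protein-coding genes in the annotation. Every Tet2 CLIP peak whose midpoint lay in the mm10 span of one of them was taken, which gave 29 of 8196 peaks. The peaks come from mast cells derived from C57BL/6 bone marrow, grown with interleukin-3 at 10 ng/ml and stem cell factor at 5 ng/ml, and over 97.5% positive for FcεRI and c-Kit by the labels. Endogenous Tet2 was pulled down with an antibody after ultraviolet cross-linking, in 3 biological replicate libraries that form a single group. CLIP reads out the RNA that was cross-linked to the protein, and the question stated for the series was which RNAs Tet2 binds. The labels name the strain but no genotype, age or treatment beyond the cytokines and the cross-linking. Neither input RNA nor a control pull-down was analysed here, and RNA levels were not analysed here, so more binding per transcript and more transcript cannot be told apart.

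FcεRI holds immunoglobulin E on the mast cell surface and signals when antigen cross-links it. The Src family kinase Lyn phosphorylates the receptor's signalling chains, Syk is recruited, and adaptor proteins assemble phospholipase C gamma, Btk and phosphoinositide 3-kinase at the membrane. Fyn and Gab2 form a further branch toward phosphoinositide 3-kinase, and Inpp5d (SHIP1) removes the lipid that this kinase makes. Calcium and diacylglycerol made through phospholipase C then activate protein kinase C, and the cell releases its granules.

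Replicates 1, 2 and 3 held 3019, 2800 and 2377 peaks. Peak heights are given below in units, where a unit is the fixed step of which every deposited height of a library is a whole multiple. Heights are the authors' values. The summed heights came to 19213, 18270 and 15431 units. The sources used here do not say whether 1 unit stands for 1 read, so the sequencing depth is unknown. The lowest heights listed were 2, 2 and 3 units, so a gene without a peak lies below what the lists hold and is not shown to be unbound. Of 15 mast cell markers 8 held a peak, and Fcer1a, Ms4a2 and Fcer1g, the genes of the FcεRI chains, did not. The counts were 1 of 7 for macrophage, 0 of 6 for neutrophil and 1 of 3 for basophil markers. For B cell and for T cell markers they were 0 of 3. Among all protein-coding genes 14.1% held a peak. Marker spans run from 964 nt (S100a8) to 214359 nt (Mitf), and a peak does not measure expression. The marker counts therefore do not check the cell type.

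Each of the 10 genes held a peak in some library. Among all protein-coding genes 14.1% did, and among the 6887 with spans in the range of these genes, 31062 to 345299 nt, 20.0% did. In at least 2 libraries 4 of the 10 held a peak, beside 6.35% of all coding genes and 8.93% of those in the span range. In all 3 libraries 2 did, beside 3.16% and 4.25%. The list was drawn up with these peak calls known, so none of the 3 counts says anything about the genes. Those 2 were Pik3cd and Prkcb, and Plcg1 and Prkcd made up the 4. Gab2, Lyn, Fyn, Btk, Inpp5d and Lcp2 each had peaks in 1 library, so 6 of the 10 genes rest on a single library, which was replicate 2 for Gab2 and replicate 1 for the rest. Of the 10 genes 6, 2 and 2 had peaks in 1, 2 and 3 libraries, beside 54.9%, 22.6% and 22.5% of the 3086 coding genes with any peak, which are like shares.

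**Figure D1:**
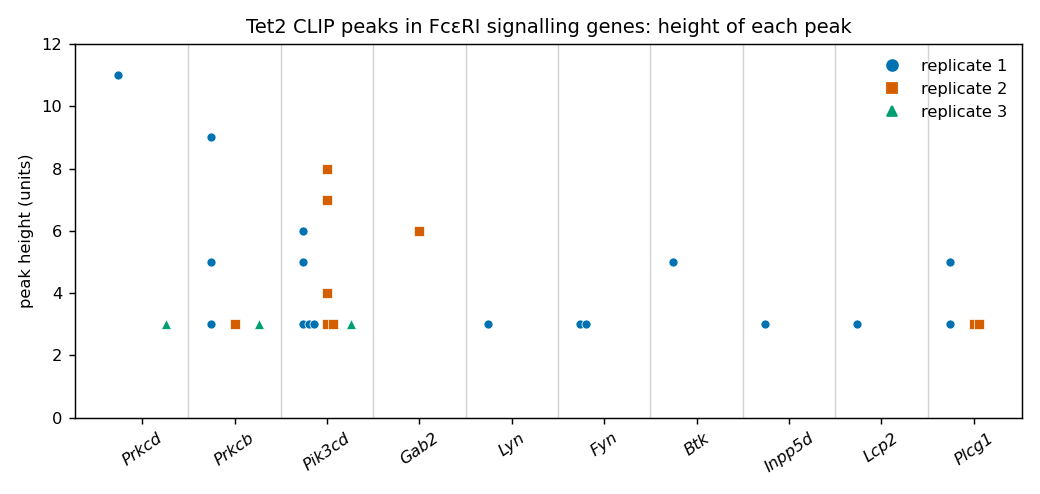
Height in units (y axis) of every peak in each of the 10 genes (x axis), with replicates 1, 2 and 3 as circles, squares and triangles. Replicate 1 has peaks in 9 genes, and 18 of the 29 peaks stand at 3 units.

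The tyrosine kinases of the list held peaks of 3 to 5 units, all of them in replicate 1. Lyn, the Src family kinase that phosphorylates the receptor chains, held 1 peak of 3 units in replicate 1 and none in replicates 2 and 3. It lay at chr4:3745276-3745289, 59.2% of the way into the span counted from its low-coordinate end. Fyn, the Src family kinase of the Gab2 branch, held 2 peaks of 3 units each in replicate 1 and none in the others. Both sat late in the gene, at 92.9% and 99.2% of the span from its 5′ end. The second, at chr10:39563764-39563817, also lies within the span of the long non-coding gene Gm16364. Which of the overlapping genes its reads belong to cannot be told from the table, which gives no strand for peaks. Btk, the Tec family kinase that acts on phospholipase C gamma, held 1 peak of 5 units in replicate 1, at chrX:134552950-134553037, and none in replicates 2 and 3. That height was above 63.0% of the peaks of its library. Neither Syk nor any of the receptor chain genes Fcer1a, Ms4a2 and Fcer1g held a peak in any library.

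The adaptors each had a single peak. Gab2, which binds the regulatory subunit of phosphoinositide 3-kinase, held 1 peak of 6 units in replicate 2 and none in replicates 1 and 3. It is the only one of the 10 genes without a peak in replicate 1. The peak covers chr7:97082095-97082129, 344 nt from the low-coordinate end of a span of 227201 nt. Lcp2 (SLP-76), a scaffold for phospholipase C gamma and Vav proteins, held 1 peak of 3 units in replicate 1 and none in the others. It lies at chr11:34065060-34065110, 40.0% along the gene, and also within the span of the non-coding gene 4930469K13Rik. With peaks in over 1 span left out, Lcp2 has no peak.

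Pik3cd, the catalytic subunit p110δ of phosphoinositide 3-kinase, held the most peaks of the 10 genes. It had 5, 5 and 1 peaks in replicates 1, 2 and 3, with tallest heights of 6, 8 and 3 units. Of the 29 peaks, 11 are therefore in this gene, and 44 coding genes have 11 or more peaks over the 3 libraries. Per 10 kb of span Pik3cd held 2.06 peaks, and the other 9 genes held between 0.04 (Gab2) and 0.90 (Plcg1). Of all height in a library its peaks made up 0.0868% ± 0.0606 (SD, n = 3), with 0.104%, 0.137% and 0.0194% in replicates 1, 2 and 3.

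All Pik3cd peaks lay near the 3′ end of the gene. The gene runs on the minus strand of chromosome 4, from 149702566 to 149649168, and all 11 peaks fall within the last 7454 nt of its 53399 nt. Each lies downstream of all 3 transcription starts that RefSeq lists, at 149698708, 149676089 and 149663316. A stretch of 600 nt, chr4:149653444-149654043, holds 6 of the 11. At its 3′ side replicate 1 had 3 units at chr4:149653444-149653478 and replicate 2 had 7 units at chr4:149653454-149653478. A second shared site lies further upstream in the gene, with 5 units in replicate 1 at chr4:149653814-149653826 and 8 units in replicate 2 at chr4:149653814-149653832. The ends at 149653478 and the lower edges at 149653814 are the same base in both libraries, and replicate 3 had no peak at either site. The remaining peaks of the stretch were found once each, at 3 units: chr4:149653647-149653703 in replicate 2 and chr4:149654023-149654043 in replicate 1. Whether these positions are coding exon, intron or untranslated region was not analysed here, since the annotation used gives spans without exons.

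The only peak of Pik3cd in replicate 3 sits beside a microRNA. A peak of 3 units covered chr4:149655581-149655694 in replicate 2 and chr4:149655581-149655692 in replicate 3, an overlap of 112 nt, and replicate 1 had none there. Mir7023 is the only annotated microRNA inside any of the 10 spans. Its hairpin lies on the same strand as Pik3cd, at chr4:149655504-149655567, and 13 bases separate it from the peak, which is upstream of it in the direction of transcription. The hairpin (mm10, minus strand, RefSeq on GRCm38.p6) is printed with the mature strand in capitals. The mature strand (chr4:149655504-149655525) is printed with its seed, bases 2 to 8, in capitals. Both are printed because this annotated microRNA lies beside a site found in 2 libraries. Distances to exons were not computed.
Mir7023 hairpin: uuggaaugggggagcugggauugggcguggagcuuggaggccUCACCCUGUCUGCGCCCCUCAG
mmu-miR-7023-3p: uCACCCUGucugcgccccucag
Neither peak overlaps the hairpin, so neither covers the printed bases. The seed is shared by 3 of the 1738 mature microRNAs of the RefSeq table, the others being mmu-miR-7018-3p and mmu-miR-7068-3p. Of the 29 peaks these 2, which form 1 of the 25 loci, lay within 50 nt of a hairpin. Of all 8196 peaks 35 did (0.427%), of which 19 overlapped it. The 2 peaks are the same site counted in 2 libraries, so no excess can be read from them. The limit of 50 nt was not among the settings planned beforehand. Most peaks of the lists are thus far from any annotated hairpin, and both Pik3cd peaks belong to the 16 that lie near one without touching it.

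**Figure D2:**
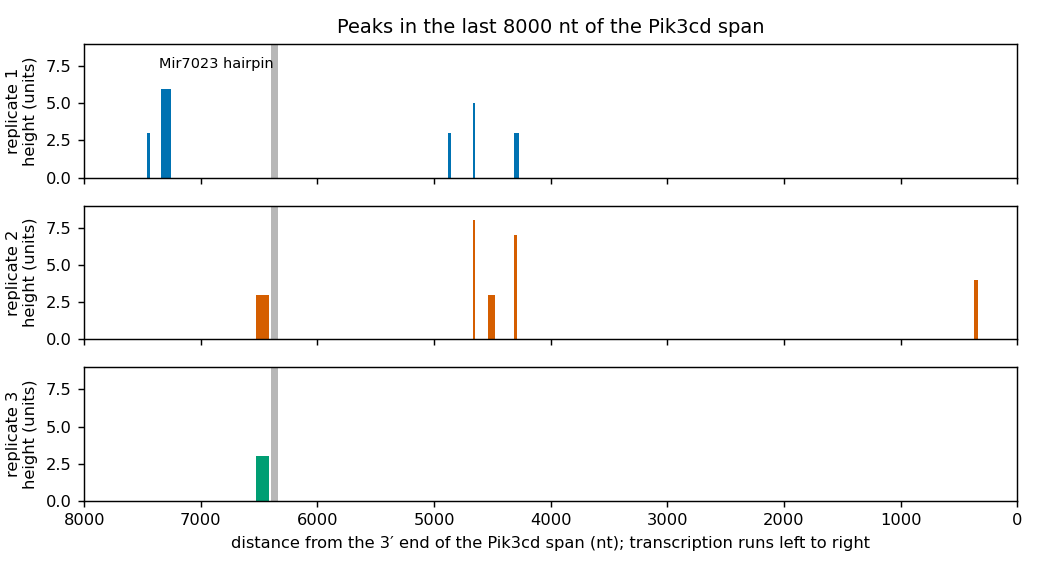
Height in units (y axis) of the Pik3cd peaks by distance from the 3′ end of the span (x axis, nt), with replicates 1, 2 and 3 from top to bottom and the Mir7023 hairpin in grey. Bars span each peak, or 24 nt where it is narrower. Replicates 1 and 2 share the sites that begin at 4276 and 4646 nt, and replicates 2 and 3 share the site next to the hairpin.

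Plcg1, the phospholipase C gamma that cleaves a membrane lipid into diacylglycerol and inositol trisphosphate, had 2, 2 and 0 peaks in replicates 1, 2 and 3. The same peak of 3 units, with the same first and last base, was listed in replicates 1 and 2 at chr2:160753678-160753744, in the middle of the gene (50.4%). Replicate 1 also had 5 units at chr2:160758173-160758226, and replicate 2 had 3 units at chr2:160732121-160732190, 811 nt downstream of the listed start. Plcg1 is thereby the only gene other than Pik3cd with a site found in 2 libraries. Inpp5d, the inositol phosphatase that opposes phosphoinositide 3-kinase, held 1 peak of 3 units in replicate 1, at chr1:87636868-87636931, and none in replicates 2 and 3. The lipid-metabolising enzymes therefore ranged between the most and the fewest peaks of the list.

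Among the protein kinase C genes, the tallest peak of the 10 genes was in Prkcd, the calcium-independent protein kinase C delta. It reached 11 units in replicate 1, above 91.6% of the peaks of that library. The peak is 1 nt wide, at chr14:30626054, 154 nt downstream of the first listed start on the minus strand. On the same reading, peaks of 1 nt were 108 of 8196 (1.32%) in the lists, and 63 of the 843 peaks of 10 units or more (7.47%). Replicate 2 had no peak in Prkcd, and replicate 3 had 1 of 3 units at chr14:30619093-30619168, 7040 nt from the same start. The libraries thus gave different positions for this gene.

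Prkcb, the calcium-dependent protein kinase C beta, held 3 peaks in replicate 1, 1 in replicate 2 and 1 in replicate 3, with tallest heights of 9, 3 and 3 units. Its 9-unit peak lies at chr7:122306655-122306745, 5.10% into a span of 345299 nt. The others in replicate 1 were 3 units at chr7:122289347-122289446, 222 nt from the listed start, and 5 units at chr7:122632779-122632843, 1559 nt before the 3′ end. Replicates 2 and 3 each added 1 peak of 3 units, at 18.5% and 77.2% of the span. No position was found in more than 1 library, although every library had a peak. The starts of both genes are printed, 30 bases to each side with the first transcribed bases in capitals (RefSeq, GRCm38.p6), because a peak followed within 250 bases in each.
Prkcd (chr14:30626179-30626238, minus strand): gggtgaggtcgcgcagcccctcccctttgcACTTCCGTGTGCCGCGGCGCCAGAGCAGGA
Prkcb (chr7:122289095-122289154, plus strand): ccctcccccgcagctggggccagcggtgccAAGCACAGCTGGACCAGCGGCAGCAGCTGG
In windows from 250 bases before to 50 bases after these starts, Prkcd had 26 CpG and 69.3% G and C, and Prkcb had 19 CpG and 65.3%. The medians over all 32851 listed windows were 7 CpG and 52.7%. Both starts are thus richer in CpG than the median listed start, which describes the DNA and not the bound RNA. Listed windows exist for 8 of the 10 genes, all but Gab2 and Lyn, and no peak of the 10 genes lay inside its gene's windows. The windows lie mostly before the start, and the share over all peaks is not given here. Nothing about these genes is therefore read from that count.

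The libraries contributed unequally to these genes. Replicate 1 gave 17 of the 29 peaks in 9 genes, replicate 2 gave 9 in 4 genes and replicate 3 gave 3 in 3 genes. As a share of the library's peaks this was 0.563% (exact 95% interval 0.328 to 0.900), 0.321% (0.147 to 0.609) and 0.126% (0.0260 to 0.368). The intervals cover counting error only and treat peaks of the same gene as independent. The genes were listed with these peak calls known, and Lyn, Fyn, Btk, Inpp5d and Lcp2 had peaks in replicate 1 alone. How far the choice of genes made the libraries differ was not tested. The share of the summed height was 0.396%, 0.219% and 0.0583%, or 0.224% ± 0.169 (SD, n = 3). Replicate 3 also had the shortest list and the lowest summed height, and the part of this in the difference was not tested. The lists as a whole differed less, with 2713, 2553 and 2120 peaks in protein-coding genes. Without replicate 1, 5 of the 10 genes keep a peak and 12 peaks remain, and 10.9% of all coding genes hold a peak. With peaks under 5 units left out, 6 genes and 10 peaks remain, beside 5.65% of all coding genes. The mean share of height is 0.139% without replicate 1, 0.118% from peaks of 5 units or more and 0.137% without Pik3cd.

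**Figure D3:**
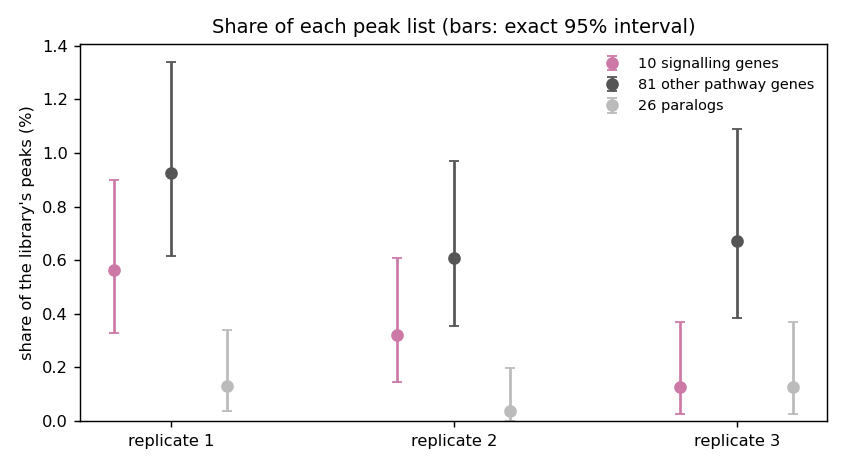
Share of each library's peaks (y axis, %) in the 10 signalling genes, in 81 other pathway genes and in 26 paralogs, with exact 95% intervals, by replicate. The 10 genes take 0.563% in replicate 1 and 0.126% in replicate 3.

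Few positions recurred. The 29 peaks formed 25 loci, of which 4 (16.0%) held peaks of 2 libraries and 0 of all 3. Of all 5969 loci, 1565 (26.2%) were in 2 or more libraries and 661 in all 3. Without Pik3cd 1 of 17 loci was shared. Leaving out replicate 1 leaves 1 shared locus, and leaving out replicate 2, which takes part in all 4, leaves 0. Sharing rises with height in the lists as a whole, so peaks were also split by height. Of the 18 peaks of 3 units 5 lay at a shared locus (27.8%, exact 95% interval 9.69 to 53.5), beside 30.8% (29.3 to 32.4) of all peaks of 3 units or less. Of the 10 peaks of 5 units or more 3 did (exact 95% interval 6.67 to 65.2%), beside 67.7% (66.0 to 69.4) of all peaks that tall. The tall peaks found once were those of Prkcd, Prkcb, Gab2 and Btk, 1 of the Plcg1 peaks and the 6-unit peak of Pik3cd. These members were listed with their heights known, and peaks of 1 gene are not independent, so the intervals describe counting error alone.

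Peaks of 3 units made up more of the 29 peaks than of all peaks, and peaks of 4 units made up a smaller part. The genes were listed with their heights known, and peaks of the same gene are not independent. At 3 units stood 62.1% of the 29 and 43.3% of all, and at 4 units 3.45% and 20.5%. The median peak of the 10 genes stood at 3 units, and that of all peaks at 4. Peaks of 5 units or more made up 34.5% of the 29 and 36.2% of all, and peaks of 10 units or more 3.45% and 10.3%. Median width was 54 nt, beside 55 nt for all peaks in coding genes whose span reaches 10000 nt.

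The genes differed in where along the span their peaks fell. Strand was known for 8 genes with 27 peaks. With the span cut into 4 equal parts from the 5′ end, these held 7, 1, 4 and 15 of the peaks, the last including all 11 of Pik3cd. Without Pik3cd the parts held 7, 1, 4 and 4 of 16 peaks, or 43.8%, 6.25%, 25.0% and 25.0%. Over all 4890 peaks in coding genes of known strand whose span reaches 10000 nt, the shares were 42.7%, 13.1%, 16.5% and 27.7%. The late position of the pooled peaks thus comes from 1 gene. Within 2000 nt downstream of the first listed start lay 3 of the 27 peaks (11.1%, exact 95% interval 2.35 to 29.2), in Prkcd, Prkcb and Plcg1, beside 32.0% (30.7 to 33.4) of all such peaks. Within 2000 nt of the 3′ end lay 3 (11.1%), in Pik3cd, Prkcb and Fyn, beside 8.36%. The limit of 2000 nt was chosen after the positions were seen.

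**Figure D4:**
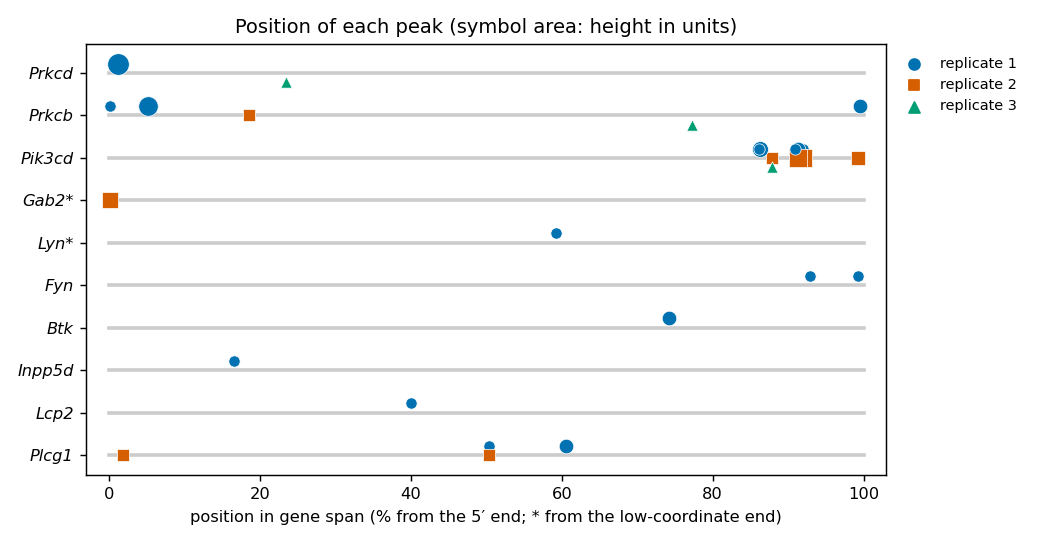
Position of every peak in its gene span (x axis, % from the 5′ end, or from the low-coordinate end for Gab2 and Lyn), by gene, with symbol area in proportion to height. The Pik3cd peaks lie between 86.1% and 99.3%, and those of the other genes are spread along the spans.

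Other genes of the pathway carried peaks too. In a list of 81 further genes, 28 held a peak (34.6%, exact 95% interval 24.3 to 46.0), beside 14.1% of all protein-coding genes and 20.0% of those in the span range. In at least 2 libraries 11 did (13.6%), beside 6.35% and 8.93%, and in all 3 libraries 6 did (7.41%), beside 3.16% and 4.25%. The median gene of the list with a peak had 1 peak and a tallest height of 4 units, against 2 peaks and 4 units over all coding genes with a peak. The span range is that of the 10 signalling genes, and spans in the list run from 2072 nt (Ltc4s) to 490135 nt (Prkce). The median span was 49275 nt in the list and 17146 nt over all coding genes. Neither share is adjusted for span length or RNA level. The list was chosen with earlier results of these data known, so no excess over coding genes is read from these shares. The list took 28, 17 and 16 peaks in replicates 1, 2 and 3.

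At the membrane, Lat2, the adaptor NTAL that is a relative of Lat, reached 3, 9 and 3 units in replicates 1, 2 and 3. It had 2 loci found in 2 libraries, chr5:134604500-134604563 in replicate 1 (134604500 to 134604539 in replicate 2) and chr5:134608592-134608671 in replicates 2 and 3. Among exchange factors and GTPases, Vav2, which activates Rac proteins, reached 3, 3 and 0 units, with 1 shared locus. Rac2, a GTPase of blood cells that drives actin rearrangement, reached 4, 6 and 3 units. Wipf1, which stabilises the actin regulator WASP, reached 3, 3 and 4 units at 1 site found in all 3 libraries. At that site replicates 1 and 2 list the same first and last base, chr2:73432255-73432322.

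Of the calcium branch, Stim2, a sensor of calcium in the endoplasmic reticulum, reached 3, 5 and 0 units. The transcription factor Nfatc1, which calcineurin activates, reached 3, 3 and 5 units at a different position in each library. Nfatc2, of the same family, reached 8, 6 and 0 units. Of the effector genes, Alox5, the lipoxygenase that starts leukotriene synthesis, reached 5, 3 and 4 units and had a site in all 3 libraries. Some Alox5 peaks also lie in the span of Gm38880. Stx4a, a syntaxin of granule fusion, reached 3, 3 and 0 units. Unc13d, which primes granules for release, reached 11, 0 and 4 units. Apart from Wipf1 and Alox5, none of the 28 genes had a site in all 3 libraries.

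Among 26 paralogs of the 10 genes, 4 held a peak (15.4%, exact 95% interval 4.36 to 34.9), and without replicate 3 only 2 did. Of all coding genes 14.1% held a peak, and of those in the span range of the 10 genes 20.0%. The median span was 67200 nt for the paralogs and 17146 nt over all coding genes. The paralogs too were listed with earlier results known. Those 4 were the protein kinase C genes Prkca, Prkce and Prkch and the adaptor Clnk, a relative of Lcp2. Prkca, the calcium-dependent protein kinase C alpha, had as many peaks per library as Prkcb. Prkcb had 3, 1 and 1 peaks with tallest heights of 9, 3 and 3 units, and Prkca had 3, 1 and 1 with 9, 5 and 3 units. In neither gene did a position recur between libraries. Prkce and Clnk each had 1 peak of 3 units in replicate 3, and Prkch had 1 of 3 units in replicate 1, which also lies in the span of LOC115488016. None of the paralogs of Pik3cd, Gab2, Btk, Inpp5d and Plcg1 in the list held a peak, among them Pik3ca, Pik3cb, Pik3cg, Tec and Plcg2. Of the 26 genes 12 also stand in the list of 81, Prkca, Prkce and Clnk among them.

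**Figure D5:**
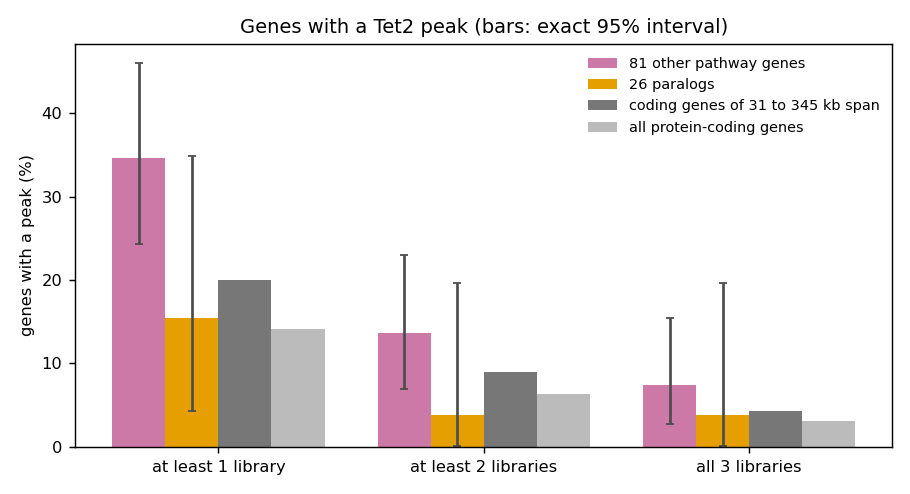
Share of genes with a peak (y axis, %) in at least 1, at least 2 and all 3 libraries for 81 other pathway genes and 26 paralogs, with exact 95% intervals, beside coding genes in the span range of the 10 genes and all protein-coding genes. The pathway list stands at 34.6% and the paralogs at 15.4% in at least 1 library, beside 20.0% and 14.1%. Both lists were chosen with earlier results of these data known.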

How the data were processed

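The authors deposited, for each library, a list of peaks with chromosome, start, end and normalized height, a signal that sums to 1 over the list. Per the submitters' processing notes, cutadapt 1.9 and STAR 2.4.0i were used with build mm10, and per the labels' protocols a valley-seeking caller found the peaks in each library. The caller's version and thresholds were not found in those sources.

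Heights were divided by the library's step (1 over 19213, 18270 and 15431), of which 100% of heights were whole multiples within 0.05 of a step. Sequencing depth is unknown, so no count model was used. Starts were read as 0-based, which the sources used here do not state, and are printed 1-based. Read as 1-based, each peak would be 1 nt wider. Peaks were assigned by midpoint to spans in RefSeq's GRCm38.p6 table (mm10 coordinates). Strand and starts came from the RefSeq promoter table, and peaks overlapping by at least 1 nt formed a locus. Intervals are exact (Clopper-Pearson, scipy 1.17.1). With 1 group there is no test. Beyond calling the replicates biological, the sources do not tie libraries to animals or cultures, and the SD may be partly technical. Assignment was tested on simulated data, with 1250 of 1250 peaks placed in their gene. Those peaks were drawn inside known spans, so the result checks the code alone. It does not cover peaks at span ends or in overlapping spans.

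The 10 genes and both lists were chosen with earlier results of these data known. Named by rule were all 10 genes, pathway genes with peaks in 2 or more libraries, the receptor chains and Syk, and paralogs with a peak. Paralogs without a peak were named as examples. Alternatives are given in the closing section. No other per-sample column was left out.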

Additional observations from a re-analysis of the deposited data

How the results depend on the processing

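Of 70 recomputed values for the counts and shares above, 49 stayed within 1.5 times the value reported (for the share of height, within 1 SD) and 21 did not. That SD, 0.169, is large beside the mean share of 0.224%, so the share counted as kept at 0.118% (peaks of 5 units or more), 0.137% (without Pik3cd) and 0.139% (without replicate 1), each over 1.5 times lower. Assigning peaks by overlap, reading starts as 1-based, adding 1 kb to each span, leaving out peaks in over 1 span, and the 2 other rules for a shared locus moved none of them past that limit. With peaks of at least 5 units only, the signalling genes with a peak fell to 6 of 10, their peaks to 10 and their shared loci to 1. The same height limit left 9 of the 81 pathway genes, 1 of the 26 paralogs and 5.65% of all coding genes. Requiring 2 libraries left 4 signalling, 11 pathway and 1 paralog gene (6.35% of all coding genes), and requiring all 3 left 2, 6 and 1 (3.16%). These rules keep fewer peaks or genes by construction. Leaving out 1 replicate in turn gave 5 to 10 signalling genes with a peak, 12 to 26 peaks, 0 to 3 shared loci and 2 to 4 paralogs with a peak, beside 10.9% to 12.1% of all coding genes. The lowest values came without replicate 1 for genes and peaks (5 and 12), without replicate 2 for loci (0) and without replicate 3 for paralogs (2). Without Pik3cd, a setting chosen after seeing the data, 18 peaks and 1 shared locus remained. No paired analysis was possible because the samples form 1 group. Single peaks of 3 units stand at or next to the lowest height listed, which limits every count of genes and loci.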
